A study of Mus musculus with 24 samples.

Results

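Accessible chromatin was compared between pre-pro-B and pro-B cells of WT mice, the step in which bone marrow progenitors take on B-cell identity. Members were chosen by label: the 4 libraries titled WT Pre-pro-B and the 4 titled WT Pro-B, 8 of the 24 libraries of the study. The study took 3 stages from bone marrow of WT and Mki67-/- mice, the last being small pre-B cells, and profiled them by ATAC-seq, in which a transposase inserts adapters into open DNA. Mki67-/- mice lack the gene for Ki-67, a protein found in the nuclei of cycling cells. Neither WT group carries an altered allele or received a treatment in the labels. All libraries carry the same broad cell type label of lymphoid progenitors, so the stage comes from the titles; age, sort markers and the number of mice per library are not given there. The Mki67-/- pre-pro-B and pro-B libraries (4 each) and the WT small pre-B libraries (4) served only as libraries in which to look at the same genes and regions again.

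Pre-pro-B cells are early lymphoid progenitors with residual potential for other lineages. In the transition to pro-B cells, the E2A proteins and EBF1 switch on the B-cell programme, PAX5 commits cells to it, and the RAG1 and RAG2 proteins join gene segments of the immunoglobulin heavy chain. The surrogate light chain, made of VPREB and lambda 5 (Igll1), and the signalling chains CD79A and CD79B then carry the first heavy chain to the cell surface.

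Each library was reduced to its 40000 strongest peaks, ranked by the -log10 q of the deposited peak list, after overlapping entries were joined. A gene's peaks are those that overlap its body or the 10 kb on either side, so neighbouring genes can share peaks. Below, a gene "rose" or "fell" in pro-B cells when its log2(peaks + 1) passed an adjusted p of 0.05 in limma (a linear model across all genes that shares the spread between them), and again with a variance floor. The floor sets the variance of a gene no lower than the mean of genes with like peak numbers, and was chosen after seeing the data: 5518 of 15859 tested genes had the same number of peaks in every library of each stage, so limma alone gave near-zero p-values to single-peak differences. The SE and adjusted p printed beside a gene are those with the floor. Nothing in the labels ties a library to its own animal; the p-values therefore rest on the spread among libraries, which may be technical. In cell populations, fewer cells of a type and less open chromatin per cell cannot be told apart.

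The deposited lists held 77175 to 88946 joined peaks in pre-pro-B and 70307 to 79268 in pro-B libraries (exact permutation p = 0.0571, adjusted p = 0.0571). Their peaks covered 49.0 ± 6.66 and 30.0 ± 1.49 Mb (SD, n = 4 each, exact permutation p = 0.0286, adjusted p = 0.0343 over 6 measures). An exact p of 0.0286 is the smallest that 4 against 4 libraries allow. Peaks were wider in pre-pro-B cells: the median width of the 40000 was 772 ± 65.9 bp against 484.8 ± 14.7 bp, with the same exact p. Background coverage, a stand-in for depth recovered from the peak statistics, was 2.52 to 5.30 in pre-pro-B and 2.85 to 3.34 in pro-B libraries. WT Pre-pro-B 2 had the lowest coverage of the 8, the narrowest peaks of its stage (676 bp) and the fewest peaks of its stage. Width thus differed with the stage. The coverage of the stages overlapped only through WT Pre-pro-B 2. WT Pre-pro-B 1, 3 and 4 had 5.08, 4.26 and 5.30, above every pro-B library. The part of width and coverage in the results below was not tested other than by the scalings given there. The share of the 40000 peaks within 1 kb of a gene end was 28.3% ± 0.287 in pre-pro-B and 30.5% ± 0.296 in pro-B libraries (SD, n = 4 each, exact permutation p = 0.0286, adjusted p = 0.0343).

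Promoters of the surrogate light chain, of the signalling chain gene Cd79a and of Rag2 were among those that had a peak in 4 of 4 pro-B libraries and in 0 of 4 pre-pro-B libraries. Of 21045 annotated starts of 17274 genes, 362 (1.72%) were gained in this sense, 305 (1.45%) were lost, and 9367 (44.5%) had a peak in all 8 libraries. Among genes of the lists used here, those with a gained start were Pax5, Lef1, Foxp1, Erg, Pou2af1, Vpreb1, Vpreb2, Igll1, Cd79a, Cd22, Rag2, E2f2, Mycn, Lck and Tcf7. Those with a lost start were Gata3, Cd3g, Ncr1, Itgam, Ly6c2, Gpr183, Itgb7, Crlf2, Ccnd3 and 1 start of Bcl11a. These genes are named because the lists hold them, and the starts were not tested one by one. A start window can be gained or lost where no region, made of the joined peaks of the 8 libraries, is. Near Mycn 0 regions were gained, and near Crlf2 0 were lost. Of the 362 gained starts 252 were also gained between the Mki67-/- libraries of the 2 stages, and of the 305 lost starts 164 were also lost there. The share of all starts gained or lost between those libraries is not given, so these counts stand without a background.

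Promoter sequences of 6 genes with a gained start are shown first, as they hold the open sites that appeared at the surrogate light chain, the signalling chain, PAX5, RAG2 and the inhibitory receptor CD22. All are RefSeq sequences of GRCm38.p6, 250 bases before to 50 bases after the start, 5′ to 3′ on the strand of the gene. Capitals mark E-boxes (CANNTG, the core bound by E2A and other helix-loop-helix factors), except in Cd22, where they mark a match to the EBF1 core (TCCC, any 2 bases, GGGA).
Vpreb1, chr16:16869206-16869505, minus strand: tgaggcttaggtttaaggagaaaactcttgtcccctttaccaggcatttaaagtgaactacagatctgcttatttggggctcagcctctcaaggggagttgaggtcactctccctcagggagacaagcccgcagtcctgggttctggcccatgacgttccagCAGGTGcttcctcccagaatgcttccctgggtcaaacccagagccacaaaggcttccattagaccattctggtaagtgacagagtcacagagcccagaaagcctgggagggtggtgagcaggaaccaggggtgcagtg
Igll1, chr16:16863936-16864235, minus strand: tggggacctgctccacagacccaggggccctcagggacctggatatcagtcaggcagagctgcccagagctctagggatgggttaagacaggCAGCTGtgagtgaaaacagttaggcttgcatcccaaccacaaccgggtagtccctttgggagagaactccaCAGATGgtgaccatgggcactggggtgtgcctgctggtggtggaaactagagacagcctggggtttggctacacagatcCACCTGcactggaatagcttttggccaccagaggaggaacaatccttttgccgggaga
Cd79a, chr7:24897247-24897546, plus strand: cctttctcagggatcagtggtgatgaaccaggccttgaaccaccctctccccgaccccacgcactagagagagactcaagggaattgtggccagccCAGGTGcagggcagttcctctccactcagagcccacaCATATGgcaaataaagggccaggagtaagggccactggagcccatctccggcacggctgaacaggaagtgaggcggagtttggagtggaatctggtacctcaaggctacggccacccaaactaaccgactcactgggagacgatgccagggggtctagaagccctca
Pax5, chr4:44710645-44710944, minus strand: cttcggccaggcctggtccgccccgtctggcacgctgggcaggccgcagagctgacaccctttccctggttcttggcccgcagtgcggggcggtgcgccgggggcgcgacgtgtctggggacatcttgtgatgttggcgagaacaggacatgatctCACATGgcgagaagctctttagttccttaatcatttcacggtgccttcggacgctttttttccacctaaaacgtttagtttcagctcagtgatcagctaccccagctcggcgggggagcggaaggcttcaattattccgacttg
Rag2, chr2:101624462-101624761, plus strand: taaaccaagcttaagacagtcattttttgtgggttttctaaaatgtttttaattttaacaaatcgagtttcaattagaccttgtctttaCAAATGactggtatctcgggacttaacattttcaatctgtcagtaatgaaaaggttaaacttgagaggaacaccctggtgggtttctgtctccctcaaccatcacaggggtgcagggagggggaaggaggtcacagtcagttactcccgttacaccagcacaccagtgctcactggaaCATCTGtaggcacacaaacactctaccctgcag
Cd22, chr7:30878979-30879278, minus strand: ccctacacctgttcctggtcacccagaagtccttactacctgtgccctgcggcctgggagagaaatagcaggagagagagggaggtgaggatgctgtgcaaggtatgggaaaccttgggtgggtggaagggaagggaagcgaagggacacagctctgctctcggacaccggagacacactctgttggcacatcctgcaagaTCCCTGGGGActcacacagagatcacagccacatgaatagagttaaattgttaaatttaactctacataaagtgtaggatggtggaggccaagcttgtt
Each of these 6 windows overlapped a peak in 4 of 4 Mki67-/- pro-B libraries. In Mki67-/- pre-pro-B cells the Igll1 window did so in 1 of 4 libraries and the other windows in 0 of 4.

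The sequences of Cd3g, a chain of the T-cell receptor complex, and Gpr183, a receptor that guides leukocyte migration, are shown for contrast as lost starts, again with E-boxes in capitals.
Cd3g, chr9:44980382-44980681, minus strand: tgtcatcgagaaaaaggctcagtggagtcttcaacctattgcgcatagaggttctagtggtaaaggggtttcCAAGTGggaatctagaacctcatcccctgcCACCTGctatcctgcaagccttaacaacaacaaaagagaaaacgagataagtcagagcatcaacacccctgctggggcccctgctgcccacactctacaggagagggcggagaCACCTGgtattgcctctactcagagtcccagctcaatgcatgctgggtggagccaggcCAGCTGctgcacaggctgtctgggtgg
Gpr183, chr14:121965144-121965443, minus strand: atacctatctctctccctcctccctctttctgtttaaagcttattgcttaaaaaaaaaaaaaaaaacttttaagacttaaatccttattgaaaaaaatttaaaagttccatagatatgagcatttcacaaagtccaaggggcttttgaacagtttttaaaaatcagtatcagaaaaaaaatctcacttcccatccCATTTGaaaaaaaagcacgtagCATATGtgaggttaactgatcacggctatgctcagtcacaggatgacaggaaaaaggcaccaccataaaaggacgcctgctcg
E-boxes were common in every class: 70.7% of gained, 79.0% of lost and 69.0% of all 21045 windows of this length held at least 1 CANNTG. The letters CAGGTG, on either strand, were in 27.9% of gained, 19% of lost and 19.9% of all windows, and CAGCTG in 22.4%, 19.7% and 15.7%.

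The EBF1 core, searched on both strands, was in 13 of 362 gained windows (3.59%), in 2 of 305 lost ones (0.656%), in 76 of 9367 kept ones (0.811%) and in 203 of all 21045 (0.965%). The match of Cd22 lies 49 bases before the start. Of the 13 gained windows with a match, those of Cd22, Sgk1 (a kinase of the AKT family), Cd82 (a tetraspanin of the cell surface), Il4i1 (an amino acid oxidase) and Sema4b (a semaphorin) are shown with 10 bases on either side and the match in capitals.
Cd22, chr7:30879058-30879087, minus strand: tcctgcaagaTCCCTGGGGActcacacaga
Sgk1, chr10:21881963-21881992, plus strand: caaagaacccTCCCAAGGGAatccgttgtt
Cd82, chr2:93462942-93462971, minus strand: gagcagagaaTCCCCCGGGAagggcggagc
Il4i1, chr7:44836217-44836246, plus strand: cacttttaatTCCCGAGGGAggtgagtggg
Sema4b, chr7:80186879-80186908, plus strand: atactccaggTCCCCAGGGAcgacgaccgg
Of the other cores, ATGCAAAT, the octamer, was in 1.93% of gained, 0.328% of lost and 1.68% of all windows. AGATAA, the core of GATA factors, was in 4.70% of gained, 13.1% of lost and 9.68% of all windows. It was in 4.96% of kept windows and in 14.8% of the 9546 closed ones, which had no peak in any of the 8 libraries. TGANTCA, the core of AP-1 and related factors, was in 4.42% of gained, 10.5% of lost and 7.04% of all windows. It was in 3.68% of kept and 10.5% of closed windows. For both cores the share in lost windows was thus near that in closed ones, and the share in gained windows near that in kept ones. CCGGAA, a core of ETS factors common in promoters that are always open, was in 11.3% of gained, 10.8% of lost and 33.5% of kept windows. These are letter matches, with no test, and 10 cores were searched.

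Over all genes, 2923 of 15859 tested (18.4%) rose and 2500 (15.8%) fell between pre-pro-B and pro-B cells. Limma without the floor called 3931 (24.8%) and 3340 (21.1%). With same-numbered libraries of the stages set as blocks, limma called 3036 and 2582 genes, and 0 and 0 passed with the floor as well. Of the genes that rose, 98.4% had a higher mean in Mki67-/- pro-B than in Mki67-/- pre-pro-B libraries, and 70.1% did so without overlap, against 17% of all tested genes. Of those that fell, 98.6% had a lower mean there and 74.9% did so without overlap, against 15.3% of all. Without any 1 of the 8 libraries, the smaller design called 1131 to 1927 genes that rose and 906 to 1541 that fell, and without the floor the genes losing peaks numbered 2186, 2175 and 2208 when WT Pre-pro-B 1, 3 or 4 was left out. The balance of the 2 directions follows the scale: counted as covered length, limma called 1345 genes higher and 10369 lower (median of all genes -0.37), and at an equal covered length in each library 7491 higher and 840 lower (median 0.39). Relative to those medians, 93.6% of 2923 and 99.3% of 2894 genes that rose and had a value in that setting kept their direction. Of those that fell, 98.8% of 2500 and 87.3% of 2163 did. Not taken relative to the medians, 65.2% of those that rose did so as covered length, and 67.9% of the 2163 at equal covered length. From the 20000 strongest peaks the shares relative to the median were 76.4% of 2460 that rose and 71.7% of 2050 that fell.

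Of 24 early B-lineage transcription factors, 14 rose and 1 fell, against 18.4% and 15.8% of all tested genes, and the median log2 difference was 0.43 against 0.00 over all. The members' peaks summed to 169 to 180 in pre-pro-B and 230 to 241 in pro-B libraries. The lists were drawn up with earlier results of these data known, and counts of a list are given as descriptions. Tcf3, Tcf4, Ikzf1, Lef1, Bcl11a, Pou2f2, Irf8 and Id3 also rose, but Tcf4 turned to -0.03 with all deposited peaks and Irf8 to -0.03 with 50 kb flanks.

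Ebf1, which specifies the B lineage (chromosome 11, 44618100 to 45008096), had 5, 6, 4 and 4 peaks in pre-pro-B libraries and 16, 16, 18 and 20 in pro-B libraries. The lowest pro-B value was more than 2 times the highest pre-pro-B value. The log2 difference was 1.69 ± 0.14 (SE, adjusted p = 0.00109). Of 21 regions with a peak near Ebf1, 9 were gained and 0 were lost, all 9 of them inside the gene body. Over all 62225 regions 15.4% were gained and 16.7% lost, the background for region counts of this and other genes. Both annotated Ebf1 starts were without a peak in all 8 libraries, so the added peaks lie away from them. The strongest of the 9 (chromosome 11, 44950308 to 44950766) reached the mean percentile 85.2 among the peaks of pro-B libraries and was in 4 of 4 small pre-B libraries. Only 3 of the 9 had a peak in all 4 small pre-B libraries.

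Pax5, which commits cells to the B lineage (chromosome 4, 44524748 to 44710694), had 8, 7, 8 and 7 peaks in pre-pro-B libraries and 13 in each pro-B library. The stages did not overlap, and the log2 difference was 0.72 ± 0.11 (SE, adjusted p = 0.00500). Its covered length hardly differed, at 5.44 ± 0.759 and 5.85 ± 0.151 kb (SD, n = 4 each), and did not pass. Of 19 regions near Pax5, 8 were gained and 4 were lost. The gained ones include the start (chromosome 4, 44710611 to 44711115, mean percentile 56.4) and 3 more within 6 kb of it, and all 4 were also in 4 of 4 small pre-B libraries. The 4 lost ones lie deeper in the gene, and 3 of these were in 0 of 4 deposited pro-B lists.

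Erg, an ETS factor of haematopoietic progenitors, had 7, 6, 7 and 8 peaks in pre-pro-B and 14, 15, 15 and 16 in pro-B libraries, so every pro-B library exceeded every pre-pro-B library (log2 difference 1.00 ± 0.11, SE, adjusted p = 0.00230). Pou2af1, a coactivator of octamer factors, had 0 peaks in all 4 pre-pro-B libraries and 2 in all 4 pro-B libraries. Its start was in the deposited lists of all 4 pre-pro-B libraries, below the 40000 strongest, and at the mean percentile 95.9 in pro-B cells. Ikzf3, an Ikaros family factor, had 3, 5, 3 and 3 peaks and then 8, 11, 10 and 9 (log2 difference 1.24 ± 0.17, SE, adjusted p = 0.00368). Spib, an ETS factor, had 3, 3, 2 and 3 and then 5, 6, 6 and 6. The 1 member that fell was Bach2, a repressor that guards B-cell development, with 19, 21, 20 and 18 peaks and then 12, 14, 13 and 11 (log2 difference -0.61 ± 0.11, SE, adjusted p = 0.00905). Of 27 regions near Bach2, 11 were lost and 4 were gained. At an equal covered length its difference relative to all genes was -0.01.

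**Figure D1:**
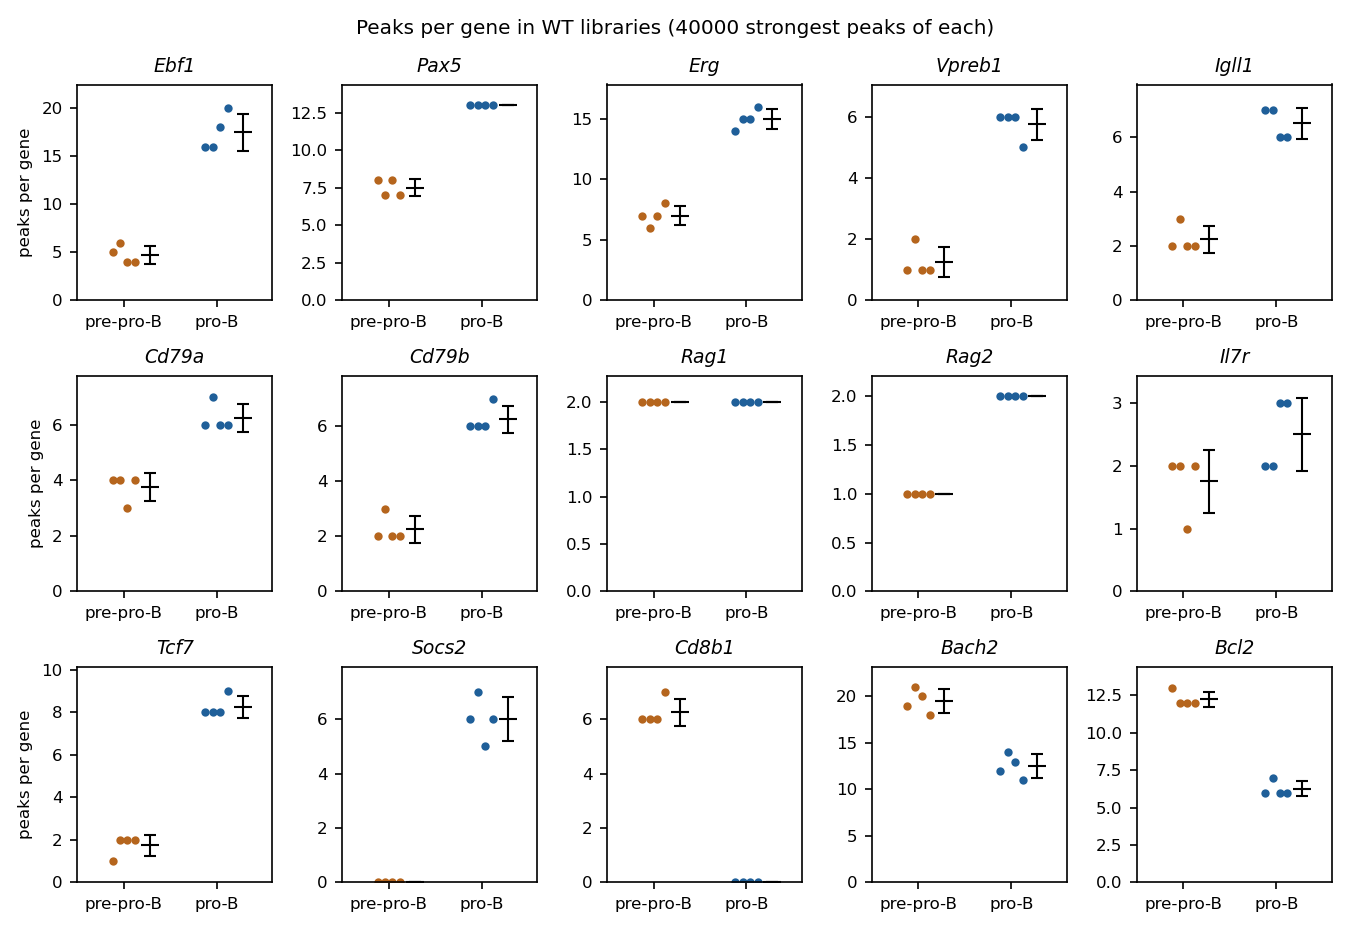
Peaks per gene in the 4 pre-pro-B (brown) and 4 pro-B (blue) WT libraries for 15 genes. The vertical axis is the number of the 40000 strongest peaks within the gene and 10 kb on either side, dots are libraries, and black bars give the mean and SD. Ebf1 went from 4 to 6 peaks to 16 to 20, Cd8b1 from 6 or 7 to 0, and Rag1 stayed at 2 in all 8 libraries.

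Of 22 genes for components and signalling of the pre-B receptor, 11 rose (50.0%) and 0 fell, against 18.4% and 15.8% of all tested genes. The median log2 difference was 0.48. Vpreb1, a surrogate light-chain gene, had 1, 2, 1 and 1 peaks in pre-pro-B libraries and 6, 6, 6 and 5 in pro-B libraries (log2 difference 1.61 ± 0.16, SE, adjusted p = 0.00187). Igll1, its partner, had 2, 3, 2 and 2 and then 7, 7, 6 and 6 (1.21 ± 0.12 on the log2 scale, adjusted p = 0.00184). The stages did not overlap for either gene, but they are neighbours and share part of their peaks. Vpreb2, a second copy at another place of the same chromosome, had 0 peaks in every pre-pro-B library and 4, 5, 4 and 4 in pro-B libraries. These near-identical genes were counted as the authors' alignment placed the reads. The region at the Igll1 start (chromosome 16, 16863732 to 16864418) stood at the mean percentile 98.0 in pro-B cells and was in all 4 deposited pre-pro-B lists as a weaker peak. The regions at the Vpreb1 start and at the Vpreb2 start (16869135 to 16869504 and 17979869 to 17980771) were in 0 of 4 deposited pre-pro-B lists. Both were also in 0 of 4 small pre-B libraries.

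Cd79a, a signalling chain of the receptor, had 4, 4, 3 and 4 peaks and then 6, 7, 6 and 6 (log2 difference 0.61 ± 0.11, SE, adjusted p = 0.00850). Cd79b, its partner, had 2, 3, 2 and 2 and then 6, 6, 6 and 7 (1.17 ± 0.11, adjusted p = 0.00191). In both genes the lowest pro-B library was above the highest pre-pro-B library. Unlike the Vpreb starts, the 2 regions gained near Cd79a were in 4 of 4 small pre-B libraries. Vpreb3, Blnk, Plcg2, Pik3ap1 and Fcrla also rose.

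Of 15 genes of V(D)J recombination, 5 rose and 3 fell, against 18.4% and 15.8% of all tested genes. The list's median was 0.00. The recombinase genes themselves showed a change of place more than of number. Rag1 (chromosome 2, 101638252 to 101649532) had 2 peaks in each of the 8 libraries. Of the 3 regions in its window, 1 was kept, 1 was gained 933 bp beyond its start-side end (101650465 to 101650815) and 1 was lost (101628216 to 101629228). Rag2 (101624712 to 101632528), which runs towards Rag1 from the other side, had 1 peak in each pre-pro-B and 2 in each pro-B library (log2 difference 0.58 ± 0.16, SE, adjusted p = 0.0387). The windows of Rag1, Rag2 and the overlapping gene Iftap share these regions. The region over the Rag2 start (101624547 to 101625588) was absent from all 4 deposited pre-pro-B lists, reached the mean percentile 65.0 in pro-B cells and was in 4 of 4 small pre-B libraries. The lost region inside Rag2 stood at the mean percentile 85.2 in pre-pro-B cells and remained in all 4 deposited pro-B lists below the 40000 strongest. The same gains and the same loss were seen in the Mki67-/- libraries, 4 of 4 against 0 of 4 each. Rag2 did not differ among the 20000 strongest peaks or with a 2 kb flank.

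Among the other members, Dntt, the polymerase that adds untemplated bases at joins, had 5 peaks in each pre-pro-B and 7 in each pro-B library. Xrcc4 and Lig4, the ligase complex of end joining, went from 1 to a mean of 2.25 and from 2 to 3 peaks, and Xrcc6, a Ku subunit, from 4.75 to 6.75. Xrcc5, the other Ku subunit, and Nhej1, an end-joining cofactor, each fell from 2.50 to 1.00, and Atm, the kinase that senses breaks, from 2 to 1. In each of these genes the means of the stages differ by 2 peaks or fewer, and Xrcc6 turned to -0.03 with all deposited peaks.

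Of 16 genes of IL-7 receptor signalling and survival, 4 rose (25.0%) and 2 fell (12.5%), near the 18.4% and 15.8% of all tested genes. Il7r, the receptor chain that B-cell progenitors need, had 2, 2, 1 and 2 peaks and then 2, 2, 3 and 3, and the stages overlapped (log2 difference 0.35 ± 0.19, SE, adjusted p = 0.219). Socs2, a feedback inhibitor of cytokine signalling, had 0 peaks in all 4 pre-pro-B libraries and 6, 7, 5 and 6 in pro-B libraries (2.80 ± 0.16, adjusted p = 0.00109), and 5 of its 6 regions were gained. In addition, 2 of those 5 were in all 4 deposited pre-pro-B lists as weaker peaks. Of the anti-apoptotic genes, Mcl1 did not pass, with 4.50 ± 0.577 and 4.25 ± 0.50 peaks (SD, n = 4 each, limma adjusted p = 0.754). Bcl2 had 13, 12, 12 and 12 peaks and then 6, 7, 6 and 6 (-0.87 ± 0.11, adjusted p = 0.00330), with 7 regions lost and 3 gained. Bcl2l1 had 7, 9, 7 and 6 and then 13, 12, 12 and 12 (0.69 ± 0.11, adjusted p = 0.00650). Stat5b and Pim1, a transducer and a kinase of this pathway, rose too, and Igf1r, a growth factor receptor, fell from 13.8 ± 1.89 to 7.50 ± 0.577 (SD, n = 4 each). Stat5b turned to -0.13 among the 20000 strongest peaks, and Pim1 to -0.01 by covered length relative to all genes.

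Of 20 genes of proliferation and the cell cycle, 6 rose and 1 fell, against 18.4% and 15.8% of all tested genes. Aurkb, a mitotic kinase, had 4, 4, 5 and 4 peaks and then 9 in every pro-B library (log2 difference 0.93 ± 0.11, SE, adjusted p = 0.00308). Cdk6, a kinase of G1, had 8, 9, 8 and 7 and then 11, 15, 13 and 13, with no overlap. By covered length relative to all genes this difference was -0.01. E2f1, E2f2, Cdkn1a and Plk1 rose and Top2a fell from 2 peaks to 1, but among the 20000 strongest peaks Plk1 turned to -0.50 and E2f1 to -0.10. The 2 regions near Top2a and the 2 near Cdkn1a had a peak in all 8 libraries. The changed counts of Top2a and Cdkn1a thus came with 0 regions gained and 0 lost. Mki67 had 1, 1, 1 and 2 peaks and then 1 in each library, which did not pass (adjusted p = 0.599). Of 13 homing and niche receptors 2 fell (15.4%, near the 15.8% of all tested genes) and 0 rose. Cd44, an adhesion receptor, went from 6 peaks in each pre-pro-B library to 3 in each pro-B library, and Gpr183 from 4 in each to 0, 1, 0 and 1.

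For genes of other lineages, the count for each list is given beside its median relative to all genes under other scalings and cutoffs. Among all tested genes 18.4% rose and 15.8% fell. Of 24 tested genes of T, NK and innate lymphoid cells 9 fell and 2 rose, with a median of -0.27 that was 0.05 relative to all genes at an equal covered length. The relative median was -0.31 by covered length and -0.15 with 500 bp windows around summits. It was 0.00 from the 20000 strongest peaks, -0.54 with all deposited peaks and -0.42 at a -log10 q of at least 10. Cd8b1, a chain of the CD8 co-receptor, had 6, 6, 6 and 7 peaks in pre-pro-B and 0 in every pro-B library (log2 difference -2.86 ± 0.16, SE, adjusted p = 0.00109). All 6 regions in its window were lost, none was left in a deposited pro-B list, and all 6 were lost between Mki67-/- libraries as well. Cd8a, its neighbour, had 3, 3, 2 and 3 and then 0, from a window that overlaps that of Cd8b1. Cd3e, of the T-cell receptor complex, had 1, 1, 2 and 1 and then 0. Il18r1, a cytokine receptor of innate lymphoid cells, had 5, 6, 5 and 6 and then 1, 2, 1 and 2, and Ncr1, an NK-cell receptor, 1 and then 0. Tcf7, a factor of early T-cell development, rose from 1, 2, 2 and 2 peaks to 8, 8, 8 and 9 (1.77 ± 0.15, adjusted p = 0.00109). Of 9 regions near it 5 were gained and 1 was lost. Cd5, a surface receptor of T cells and some B cells, also rose.

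Of 20 genes of plasmacytoid and other dendritic cells, 7 fell and 5 rose, and the median of -0.27 was -0.01 relative to all genes at an equal covered length. The relative median was -0.36 by covered length and -0.38 with 500 bp windows around summits. It was 0.00 from the 20000 strongest peaks, -0.55 with all deposited peaks and -0.40 at a -log10 q of at least 10. Those that fell include Klk1, with 2 peaks in each pre-pro-B library and 0 in each pro-B library, Itgax, an integrin of dendritic cells, with 3, 5, 4 and 3 and then 1 in each, and Xcr1, a chemokine receptor of a dendritic cell subset, with 4, 3, 2 and 3 and then 1 in each. Cd7 and Tlr7 fell too. Of the 5 that rose, Spib, Irf8 and Tcf4 are shared with the B-lineage list. The others are Runx2, with 5, 7, 6 and 5 and then 10, 10, 11 and 11 peaks, and Pacsin1, with 4, 2, 3 and 2 and then 8, 8, 8 and 7. Runx2 turned to -0.70 with all deposited peaks and to -0.31 at a -log10 q of at least 10. The list's peaks summed to 71 to 77 in pre-pro-B and 74 to 79 in pro-B libraries.

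Of 18 tested myeloid genes 6 fell and 1 rose, with a median of -0.21 that was 0.05 relative to all genes at an equal covered length. The relative median was -0.26 by covered length and -0.15 with 500 bp windows around summits. It was -0.25 from the 20000 strongest peaks, -0.28 with all deposited peaks and -0.30 at a -log10 q of at least 10. Csf3r, the receptor of a granulocyte growth factor, had 3 peaks in each pre-pro-B and 1 in each pro-B library, and Itgam, an integrin of myeloid cells, 7, 8, 7 and 8 and then 4, 5, 3 and 4. Spi1, the factor PU.1, had 6, 5, 6 and 5 and then 4 in each, but turned to 0.56 among the 20000 strongest peaks and to 0.39 at an equal covered length relative to all genes. Fcgr3, an Fc receptor gene, rose from 2 in each to 4, 4, 4 and 5. Of 19 tested stem and progenitor genes 6 fell and 3 rose (median -0.26, and -0.04 relative to all genes at an equal covered length). The relative median was -0.18 by covered length and -0.26 with 500 bp windows around summits. It was 0.00 from the 20000 strongest peaks, -0.18 with all deposited peaks and 0.00 at a -log10 q of at least 10. Prdm16 and Mecom, factors of stem and early progenitor cells, went from 5, 6, 6 and 5 to 0, 1, 1 and 0 and from 6, 6, 6 and 4 to 2 in each. Flt3, a cytokine receptor of lymphoid progenitors, went from 10, 10, 10 and 9 to 6, 7, 6 and 7, and Lmo2 from 3.50 to 2.00; both turned direction among the 20000 strongest peaks, with a 50 kb flank and at an equal covered length. Hlf, Gata2 and Egfl7 rose, of which Hlf turned to -0.10 with all deposited peaks.

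**Figure D2:**
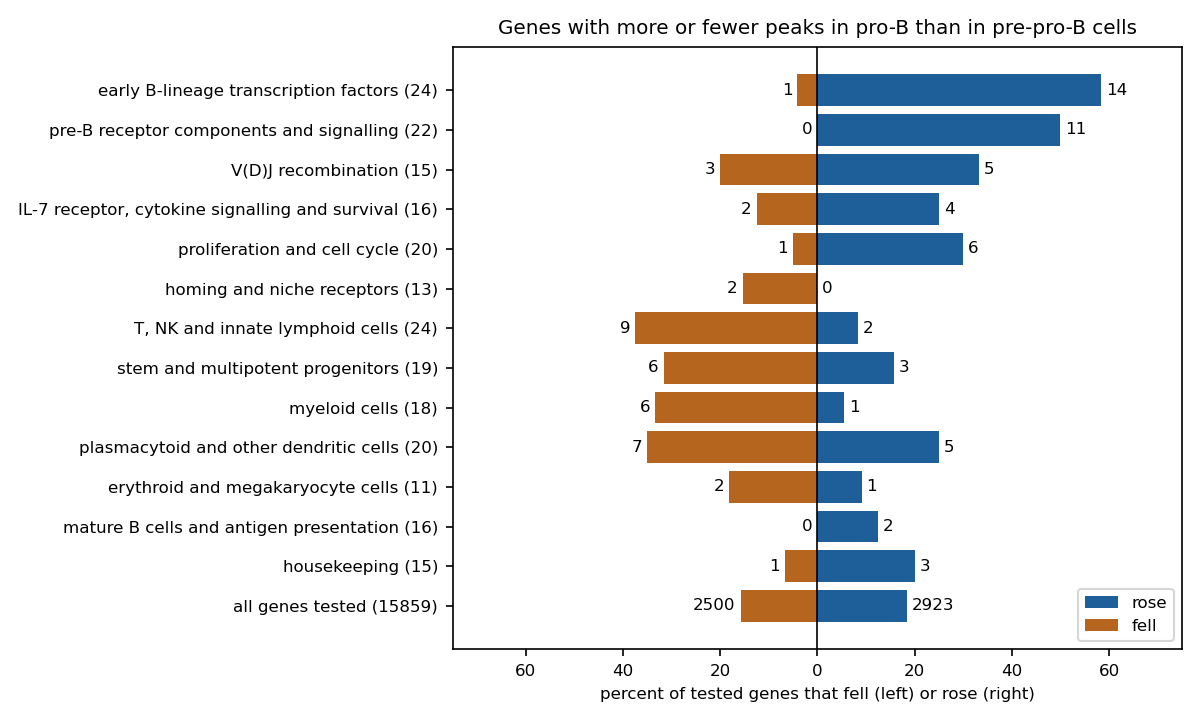
Share of tested genes of each list that fell (brown, left) or rose (blue, right) in pro-B against pre-pro-B WT libraries, in percent of the tested genes given in brackets, with the number of genes beside each bar. The early B-lineage (14 of 24) and pre-B receptor (11 of 22) lists lie far to the right of all genes tested (18.4% rose, 15.8% fell), and the T, NK and innate lymphoid list to the left (9 of 24 fell).

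The labels were set beside marker genes. In pro-B libraries Cd3e, Cd8a, Cd8b1, Bcl11b, Ncr1, Klk1 and Hbb-bt had 0 peaks, and Cd79b had 6 or 7. In pre-pro-B libraries Cd79b had 2 or 3 peaks and Vpreb2, Pou2af1 and Socs2 had 0, while Cd8b1, Itgam and Prdm16 had 5 or more in every library. Itgam also kept peaks in every pro-B library, and regions near Pou2af1 and Socs2 were in deposited pre-pro-B lists as weaker peaks. These genes are examples, and members of the same lists went the other way. Tcf7, Cd5, Fcgr3, Gata2, Hlf, Egfl7, Runx2 and Pacsin1 rose, and Bach2, Bcl2 and Igf1r fell. Peaks of the T, NK and innate lymphoid list summed to 79 to 94 in pre-pro-B and 65 to 70 in pro-B libraries, those of the myeloid list to 48 to 51 and 36 to 40, and those of the stem and progenitor list to 66 to 68 and 46 to 53. Gata1, Hbb-bs, Alas2, S100a8 and Ctsg had 0 peaks in all 8 libraries and do not tell the stages apart. Whether other cells in the pre-pro-B sort contribute to these peaks was not tested. Of 11 tested erythroid and megakaryocyte genes 2 fell (Hbb-bt and Slc4a1) and 1 rose (Pf4), each with 2 peaks at most, and with all deposited peaks Hbb-bt and Slc4a1 turned to 0.40 and 0.10. Of 16 genes of mature B cells and antigen presentation 2 rose (Tnfrsf13c, the BAFF receptor, and H2-Eb1, a class II chain, which turned to -0.29 among the 20000 strongest peaks) and 0 fell. Of 15 housekeeping genes 3 rose (Actb, B2m and Rplp0) and 1 fell (Tuba1b), and B2m turned to -0.49 with all deposited peaks. Among all tested genes 18.4% rose and 15.8% fell, the background for the erythroid, mature B and housekeeping counts.

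The following genes outside the lists are named for the size of their difference, after their values were seen. Magi1, a scaffold of cell junctions, had 0 peaks in all pre-pro-B libraries and 7, 8, 8 and 7 in pro-B libraries, and Alpl, alkaline phosphatase, 0 and then 6, 7, 8 and 6. A region inside Alpl (chromosome 4, 137788400 to 137789239) was among the 5 strongest gained regions of all. Slit1, a guidance ligand, went from 3, 4, 4 and 4 to 18, 19, 19 and 20 peaks, with 15 of 20 regions gained and 0 lost. Plppr1, Zan, Svopl, Hs3st2, Gas6 and Lama4 had 0 peaks in every pre-pro-B library and at least 4 in every pro-B library. In the other direction, Dclk1, a kinase gene best known in neurons, went from 6, 6, 5 and 6 peaks to 0, and Cadm1, an adhesion molecule, from 11, 10, 11 and 12 to 2, 1, 1 and 1. Hdac9, a histone deacetylase, went from 17, 20, 18 and 16 to 7, 6, 5 and 5, with 14 regions lost and 4 gained. Sh2d1b1, an adaptor of NK cells, went from 5, 4, 5 and 5 to 0, and its start was lost. By the rule of the smallest limma p, 510 genes tied, with 1 peak in each library of one stage and 0 in the other. The first of them by name were 1700010B08Rik, 4930407I10Rik, 4930578I06Rik, A530016L24Rik, Abi3bp, Actrt2, Ahsg, Allc, Ambp and Amer2 among gains. Among losses they were 1700034J05Rik, 1700102P08Rik, 2410137M14Rik, 4930519L02Rik, 4930522H14Rik, 4930558C23Rik, 4930590J08Rik, 4933417A18Rik, 9430069I07Rik and A530064D06Rik.

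Region by region, 62225 places had a peak in at least 1 of the 8 libraries. Of these 9604 (15.4%) were gained, that is, found in 4 of 4 pro-B and 0 of 4 pre-pro-B libraries, 10368 (16.7%) were lost and 20333 (32.7%) were kept in all 8. Within 1 kb of a gene end lay 9.63% of gained, 6.98% of lost, 46.8% of kept and 21.7% of all regions. In gene bodies lay 49.9%, 50.5%, 29.1% and 42.8%, and between genes 40.5%, 42.5%, 24.1% and 35.5%. Mixed regions, with a peak in some other combination of libraries, had positions near those of gained regions (10.7% at gene ends, 48.6% in bodies and 40.7% between genes). Absence from the 40000 strongest is not absence of a peak. Of the gained regions 55.4% were in no deposited pre-pro-B list and 25.8% were in all 4. Of the lost regions 56.8% were in no deposited pro-B list and 20.9% were in all 4. Between Mki67-/- libraries 82.2% of the gained regions were also gained and 78.7% of the lost ones also lost, against 15.4% and 15.8% of all regions, and 0 went from gained to lost or back. At an equal covered length 13903 regions were gained and 3341 lost, and with windows of 500 bp around summits 9540 and 10132.

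In WT small pre-B cells, 46.1% of the gained regions were in 4 of 4 libraries and 40.5% in 0 of 4, close to the shares over all 62225 regions (46.9% and 41.8%). Of the lost regions 10.8% were in 4 of 4 and 78.8% in 0 of 4, and of the kept regions 89.9% and 5.26%. Of the mixed regions 24.5% were in 4 of 4 and 58.8% in 0 of 4. The shares over all regions thus include the kept ones, and the share of gained regions in 4 of 4 was above those of mixed and lost regions. Regions gained near Cd79a and Ikzf3 were thus still open in all 4 small pre-B libraries, and those at the Vpreb1 and Vpreb2 starts were not among their 40000 strongest peaks. The regions were chosen from the pro-B libraries, so their shares at the third stage are a description.

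**Figure D3:**
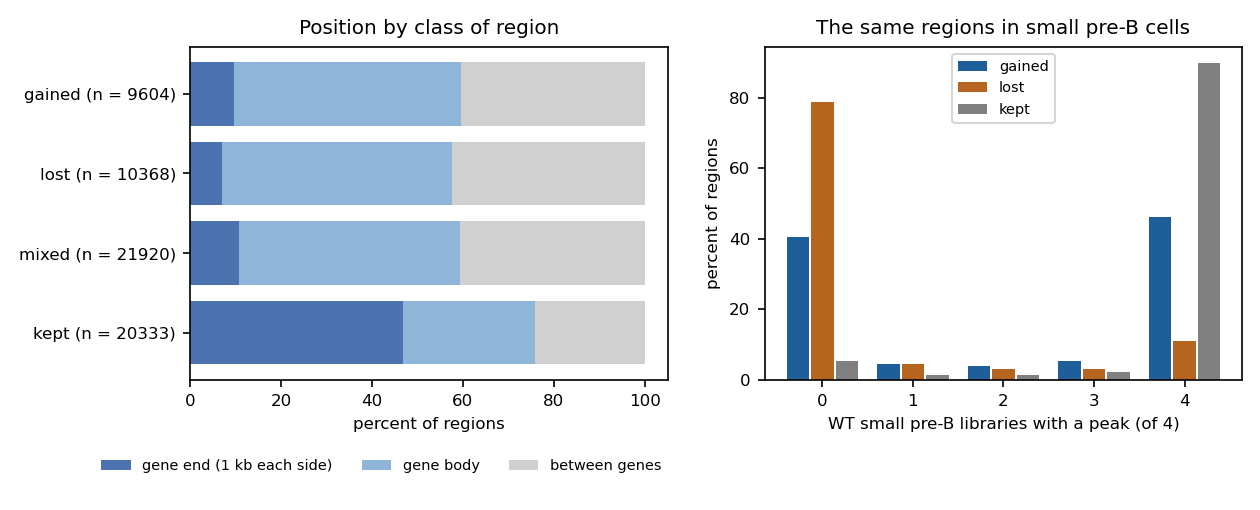
Left, position of gained, lost, mixed and kept regions, as percent of the regions in each class (n in brackets); mixed regions had a peak in some other combination of the 8 libraries. Right, percent of gained (blue), lost (brown) and kept (grey) regions with a peak in 0 to 4 of the 4 WT small pre-B libraries. Gained regions split between 0 (40.5%) and 4 (46.1%) libraries, near the shares over all regions (41.8% and 46.9%), which include the kept ones. Of lost regions 78.8% were in 0.

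The 5 gained regions of highest mean percentile in pro-B cells lay 8083 bp from Wdfy4 (chromosome 14, 32950596 to 32951464, percentile 99.6) and inside Alpl, Iqsec1, Dnah1 and Kank1 (percentiles 99.4, 99.4, 99.4 and 99.3). All 5 were in 4 of 4 small pre-B and 4 of 4 Mki67-/- pro-B libraries. The one in Dnah1 (chromosome 14, 31313172 to 31314109) was in 0 of 4 deposited pre-pro-B lists, whereas those in Iqsec1 and Kank1 were in 4 of 4 as weaker peaks. The 5 lost regions of highest mean percentile lay mostly between genes: 183941 bp from Ktn1, 175046 bp from Plxna1, 480919 bp from Camk1g, 3806 bp from Myh14 and inside Svil. Their percentiles in pre-pro-B cells were 97.0, 96.4, 96.1, 95.7 and 95.5, and all 5 were in 0 of 4 small pre-B libraries. The one nearest Myh14 (chromosome 7, 44674678 to 44675719) was the only one of the 5 in 0 of 4 deposited pro-B lists.

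Among the 20333 regions kept in all 8 libraries, the place of a peak within its library's 40000 was compared as a percentile. By limma 6113 (30.1%) were higher and 7062 (34.7%) lower in pro-B cells. Ranked by fold enrichment in place of q the split was 8040 higher and 4538 lower, so the balance of directions depends on the measure. By limma 28.2% of kept regions at gene ends were higher and 34.0% lower, against 32.2% and 34.2% in gene bodies and 31.1% and 36.7% between genes. Of those at gene ends, 7.90% moved up by more than 20 percentile points and 9.06% moved down by more, against 18.2% and 19.9% in gene bodies and 17.6% and 22.5% between genes. Across kept regions the mean percentiles of the 2 stages had a correlation of 0.62, given as a description over regions. Gene-end regions had a median percentile of 82.5 in pre-pro-B and 80.5 in pro-B cells. The medians were 58.9 and 57.7 in gene bodies and 57.4 and 54.6 between genes. Whether these levels bear on the shares of large moves was not tested.

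Regions among those with the smallest p that were higher in pro-B cells lay 71836 bp from Kif2a, 17232 bp from Scd1, inside Sergef, 622 bp from Pik3r5 and inside Rgs3. The one nearest Kif2a (chromosome 13, 107094191 to 107095903) went from the percentile 28.3 to 99.3, and the one near Pik3r5, a regulatory subunit of a PI3 kinase of leukocytes (chromosome 11, 68498471 to 68499559), from 11.4 to 97.1 (limma adjusted p = 7.99e-09 and 1.22e-08). Those lower in pro-B cells lay inside Prkca and Ttll11, 2407 bp from Hes2 and 70133 bp from Ctsc. The one in Prkca, a protein kinase C gene (chromosome 11, 108261383 to 108262362), went from 90.3 to 5.30 (limma adjusted p = 7.99e-09). Kept regions thus include some that moved across most of the range while remaining among the 40000 strongest in both stages.

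**Figure D4:**
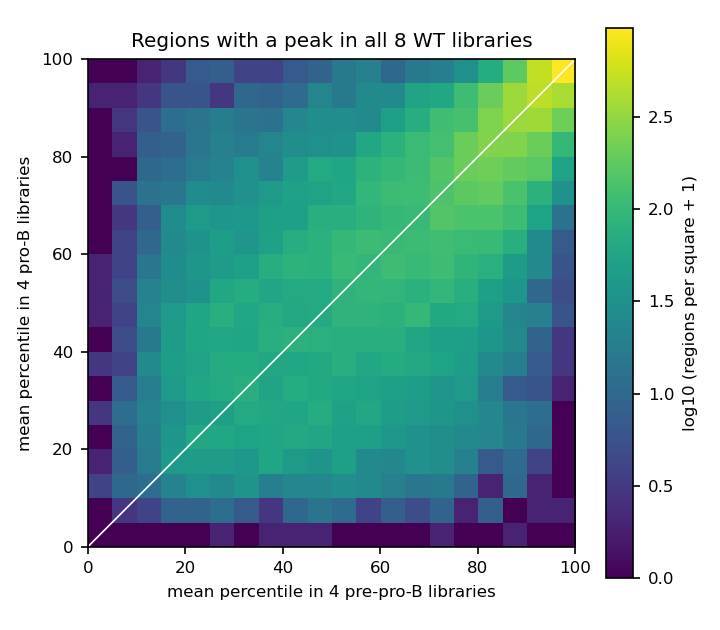
Mean percentile of the 20333 kept regions in the 4 pre-pro-B (horizontal) and 4 pro-B (vertical) WT libraries, as the number of regions per square of 5 by 5 percentile points on a log10 colour scale (log10 of regions + 1); the white line marks equal percentiles. Regions are densest near the line at high percentiles, with a broad scatter off it (correlation 0.62).

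The antigen receptor loci are where RAG proteins cut, and the heavy-chain locus is joined first, D to J and then V to DJ. Igh (chromosome 12, 113256204 to 116009954) had 32, 45, 30 and 34 peaks in pre-pro-B libraries and 96, 90, 91 and 100 in pro-B libraries. The stages were far apart, at 35.2 ± 6.70 and 94.2 ± 4.65 (SD, n = 4 each, exact permutation p = 0.0286, adjusted p = 0.0343 over 6 loci). Covered length was 24.7 ± 1.94 and 44.1 ± 3.57 kb (SD, n = 4 each, exact permutation adjusted p = 0.0343), and 39 regions of the locus were gained and 5 lost. Of the 39, 37 were also gained between Mki67-/- libraries, as were 82.2% of all gained regions. At an equal covered length the difference was 81.2 peaks, with an adjusted p of 0.0571.

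Within Igh the gain was in the V part. The D, J and C part had 9, 9, 9 and 10 peaks and then 9, 7, 7 and 8. The 60 V segments nearest D, with the DNA around them, had 7, 9, 7 and 5 and then 28, 26, 23 and 26. The 60 farthest had 16, 27, 14 and 19 and then 59, 57, 61 and 66. These parts were set from the segment order and are described without a test. Counted per segment, 3.25 ± 1.26 and 13.8 ± 4.50 of the 60 nearest and 60 farthest had a peak within 500 bp in pre-pro-B libraries and 11.5 ± 1.00 and 29.0 ± 0.816 in pro-B libraries (SD, n = 4 each). Most V segments thus had none of the 40000 strongest peaks within 500 bp in either stage.

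Igk, the kappa light-chain locus, which is joined at the small pre-B stage (chromosome 6, 67555636 to 70726754), had 12, 15, 12 and 9 peaks and then 28, 30, 21 and 22 (exact permutation p = 0.0286, adjusted p = 0.0343, n = 4 each). Its covered length did not differ by the test, at 9.12 ± 0.904 and 9.52 ± 1.63 kb (SD, n = 4 each, exact permutation adjusted p = 0.686). The added peaks lay around the 51 V segments farthest from J, with 6, 6, 6 and 4 and then 21, 20, 17 and 16, while the 51 nearest had 3, 6, 2 and 2 and then 4, 7, 1 and 3. The J and C part had 1 peak in each of the 8 libraries. Igl, the lambda locus (chromosome 16, 19061752 to 19260844), had 7, 7, 7 and 6 peaks and then 5 in each pro-B library (exact permutation adjusted p = 0.0343). Without any 1 pro-B library the adjusted p was 0.0686, and at an equal covered length 1.00.

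Among the T-cell receptor loci, Tcra/Tcrd (chromosome 14, 52427967 to 54224198) had 35, 27, 30 and 32 peaks and then 14, 16, 14 and 14, and Tcrg (chromosome 13, 19178042 to 19352343) had 9 in each pre-pro-B and 3 in each pro-B library (exact permutation adjusted p = 0.0343 for both). At an equal covered length Tcra/Tcrd turned to a difference of 2.00 peaks (exact permutation adjusted p = 0.171). In that setting Tcrg had a difference of -2.50 peaks with an adjusted p of 0.171. Tcrb (chromosome 6, 40891296 to 41558371) had 9, 9, 11 and 8 and then 9, 10, 9 and 12, and the stages overlapped (exact permutation p = 0.600). With all deposited peaks Tcrb passed, at a difference of -13.2 peaks (exact permutation adjusted p = 0.0286), and at an equal covered length it was higher in pro-B cells by 7 peaks (exact permutation adjusted p = 0.0571).

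**Figure D5:**
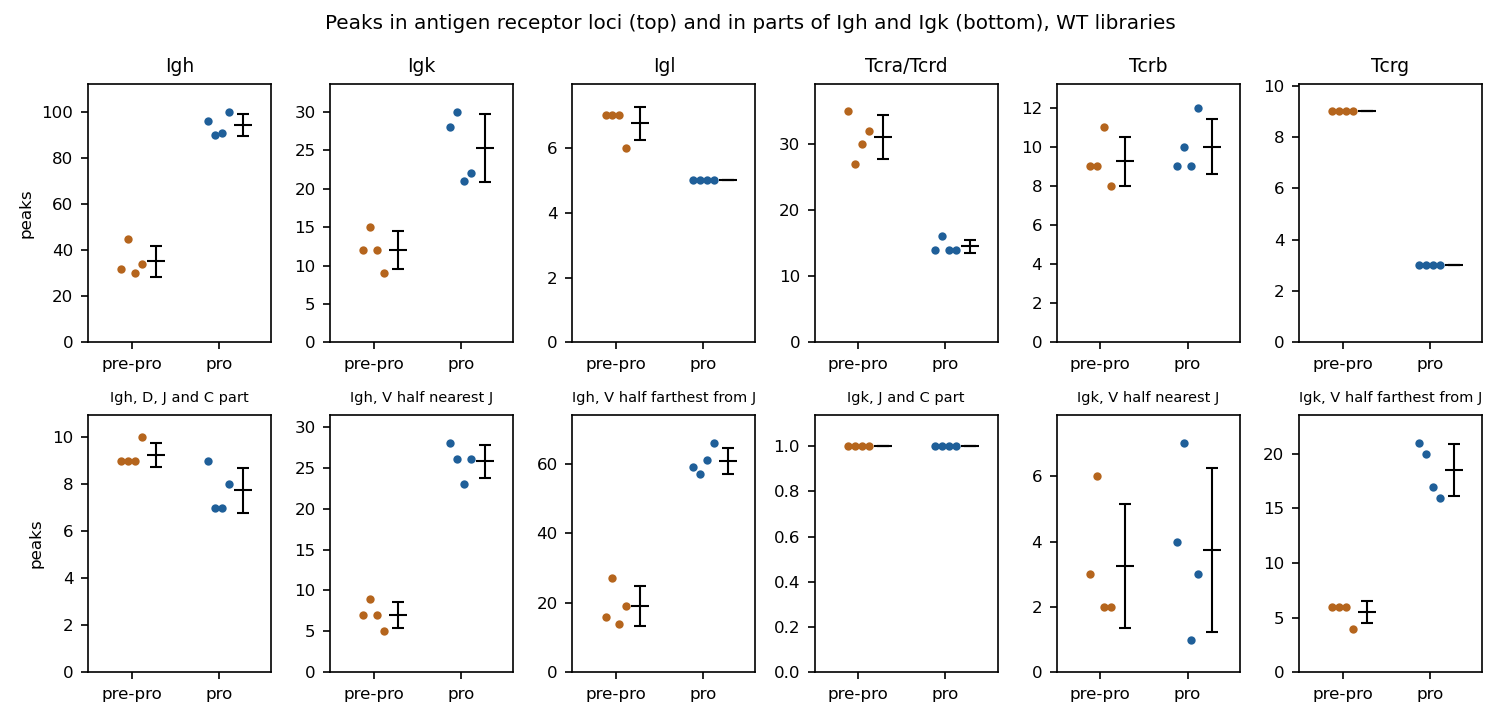
Number of the 40000 strongest peaks in 6 antigen receptor loci (top) and in parts of Igh and Igk (bottom), for 4 pre-pro-B (brown) and 4 pro-B (blue) WT libraries; dots are libraries and black bars give the mean and SD. Igh rose from 30 to 45 peaks to 90 to 100, near to D and far from it in the V part, and Tcrg went from 9 to 3.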

How the data were processed

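The deposited files are narrow peak lists, 1 per library. Per the submitters' processing notes, the authors used Trimmomatic, MACS2, deepTools, DiffBind and DESeq2 with the mm10 build; versions and settings are not given in the sources used here. Each deposited entry has a score (10 times its -log10 q), a fold enrichment of the summit over local background (a ratio), a -log10 p and a -log10 q, all made by the authors from that library alone. The lowest deposited -log10 q was 2, a q of 0.01.

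Overlapping entries on chromosomes 1 to 19 and X were joined, keeping the highest -log10 q, and the 40000 strongest were kept. Peaks per gene were counted on RefSeq genes (GRCm38.p6) with 10 kb flanks. The 15859 of 21631 genes with a peak in at least 4 of the 8 libraries were tested with limma 3.58.1 (R 4.3.3) on log2(peaks + 1), with Benjamini-Hochberg adjustment at 0.05. A gene was called if it also passed with a variance floor (5 bins of like level, no moderation), added after seeing the data. Regions are unions of peaks over the 8 libraries. Percentiles of kept regions were tested with limma, and loci and library measures with 2-sided exact permutation tests (Python 3.11.15, scipy 1.17.1). Background coverage was solved from the p-value and fold of 3000 weak summits per library (match within 0.01); read totals are unknown, so no counting interval is given. Steps were tested on simulated data.

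The members, the 13 gene lists and the tests were chosen with earlier results of these data known. The lists were early B-lineage factors, pre-B receptor, V(D)J recombination, IL-7 and survival, proliferation, homing, T/NK/innate lymphoid, stem, myeloid, dendritic, erythroid, mature B and housekeeping. Named genes were the 10 per direction with the smallest limma p, up to 5 per list and direction, 9 genes of the B lineage, and genes of largest difference named after seeing values; other members of a list are named without values. Some named items are not reported here. Alternatives were other peak cutoffs, flanks, scales, filters, a replicate block, covered length, equal covered length, summit windows and leaving out each library.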

Additional observations from a re-analysis of the deposited data

Results flagged for a closer look

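Of 52 sets of 4 libraries examined, 6 held 1 library that the rule set apart from the other 3. In all 6 the other 3 libraries had tied whole numbers, where the rule flags any library that differs. The expected 2.60 sets (1 in 20) holds for values without ties and so does not apply to these counts. The Igl locus had 6 peaks in WT Pre-pro-B 4 and 7 in the other pre-pro-B libraries, and Tcra/Tcrd had 16 in WT Pro-B 2 and 14 in the other pro-B libraries. The summed peaks of the V(D)J recombination list were 41 in WT Pro-B 2 and 40 in the others. Those of the IL-7 and survival list were 85 in WT Pro-B 3 and 88 in the others. Those of the dendritic cell list were 77 in WT Pre-pro-B 2, the library of lowest background coverage, and 71 in the others. Those of the erythroid and megakaryocyte list were 23 in WT Pre-pro-B 1 and 22 in the others. In each case but the dendritic, IL-7 and Tcra/Tcrd ones the gap is 1 peak.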

How the results depend on the processing

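From the 20000 strongest peaks, limma called 2253 genes as gained and 1994 as lost; the counts were 1345 and 10369 as covered length and 7491 and 840 at equal covered length. With the variance floor as well they were 932 and 7310 as covered length and 6065 and 561 at equal covered length, and genes that rose numbered 1479 with all deposited peaks and 1633 where -log10 q had to reach 10. Leaving out each library gave 2702 to 3354 gained and 2175 to 2773 lost by limma, and 1131 to 1927 and 906 to 1541 with the floor, from fewer libraries. Kept regions higher and lower in rank numbered 2940 and 3668 from the 20000 strongest, and from all deposited peaks 9426 and 14799. Those lower numbered 4538 by fold enrichment, and 11504 where -log10 q had to reach 10. Regions gained and lost numbered 5092 and 4970 with the 20000 strongest. Lost regions numbered 20155 with all peaks, 16837 where -log10 q had to reach 10, and 3341 at equal covered length. The cause was not tested.

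Among loci (exact permutation, adjusted p), Tcrg had 0.0857 with the 20000 strongest; Tcrb had 0.0286 both with all peaks and where -log10 q had to reach 10, and 0.0343 as covered length; Igk had 0.686 as covered length. At equal covered length Igh and Igk had 0.0571, Igl 1.00, Tcrg 0.171 and Tcra/Tcrd 0.171 with the direction turned. Without each library in turn, Igl ranged from 0.0343 to 0.0686. For library measures the ranges were 0.0286 to 0.0857 for peaks deposited (0.0286 without WT Pre-pro-B 2), 0.0286 to 0.0686 for Mb covered and the share in gene bodies, and 0.0286 to 0.0571 for width and the shares at gene ends and between genes; 4 against 3 libraries allow few smaller values.

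Same-numbered libraries of the 2 stages did not deviate together (correlations -0.009 to 0.036, own number highest for 2 of 4), so they were not treated as pairs. Chromosome Y entries were nevertheless low for numbers 1 and 2 and high for 3 and 4 in both stages (25, 21, 63 and 56 in pre-pro-B and 23, 21, 44 and 42 in pro-B libraries). With a replicate block limma called 3036 and 2582 genes, but 0 and 0 with the floor, where fewer residual degrees of freedom remain. What the shared order of the chromosome Y entries reflects, and why the block with the floor left 0 calls, was not tested.

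For 122 named genes, 1819 of 2299 values under the alternatives kept direction and side of the threshold in both tests, 448 lost the call (120 of them under the replicate block), 5 gained it and 27 turned direction; by limma alone 2135 kept both and 130 lost the call. The turned log2 differences (covered lengths relative to all genes) were, with all deposited peaks, Xrcc6 -0.03, Hlf -0.10, Cd14 0.31, Runx2 -0.70, Tcf4 -0.03, Hbb-bt 0.40, Slc4a1 0.10 and B2m -0.49. At a -log10 q of at least 10 they were Cd14 0.08, Runx2 -0.31 and B2m -0.24. With the 20000 strongest they were Stat5b -0.13, Plk1 -0.50, E2f1 -0.10, Flt3 0.07, Lmo2 1.00, Spi1 0.56 and H2-Eb1 -0.29. With 50 kb flanks they were Flt3 0.08, Lmo2 0.14, Irf8 -0.03 and B2m -0.01. As covered length Pim1 and Cdk6 had -0.01, and at equal covered length Flt3 had 0.02, Lmo2 1.20 and Spi1 0.39. The cause was not tested.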
